A study of Mus musculus with 6 samples.

Results

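The clustered protocadherins are the cell-surface proteins encoded by the alpha, beta and gamma gene clusters of mouse chromosome 18. They were taken here as the non-control probes whose gene name on the array is that of a member of one of these clusters. This gave 38 probes for 35 genes, out of 55681 probes with 34797 names on the array: 9 probes for 7 alpha genes, 22 probes for 22 beta genes and 7 probes for 6 gamma genes. RefSeq lists 14 alpha, 22 beta and 22 gamma members, so the beta cluster was covered gene by gene and the other clusters in part. The accession of each of the 38 probes gave the same symbol in RefSeq (assembly GRCm38.p6, used for names only).

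Total RNA of brain synaptosomes, the nerve terminals pinched off when brain is homogenised, was labelled with Cy3 and read on 6 one-colour Agilent arrays. The 3 knock-in arrays were compared with the 3 wild-type arrays. The sample names and the series design call the first group knock-in, while its genotype field reads knock-out, and the series title places the study in FMR1 and FXTAS, the tremor/ataxia syndrome of FMR1 premutation carriers. The labels give an RNA input of 0.2 µg for all samples but knock-in replicate 1, for which they give 0.0 µg. The labels used here give no strain, age, sex or allele, and do not say whether the 3 samples of a group came from separate animals, so p-values rest on the variation among these 6 samples and it may be technical.

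Each alpha or gamma transcript joins a variable exon, which has its own promoter and encodes the extracellular cadherin repeats and the membrane span, to a short set of constant exons shared by the whole cluster. Beta genes lie in a single exon each and share no constant part. The choice of variable exon differs between single neurons. It gives a cell a combination of homophilic adhesion proteins on which self-recognition of its own branches depends, and gamma protocadherins are also needed for neuron survival and synapse formation. The C-type members at the end of the alpha and gamma clusters are expressed more uniformly than the others.

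Because of this gene structure, a probe can read 1 member, several, or a whole cluster. The array annotation places the probes on chromosome 18 of build mm9, the alpha probes between 37114742 and 37347294, the beta probes between 37427011 and 37680728 and the gamma probes between 37823813 and 38001437. It lists RefSeq transcripts of more than 1 member for 4 probes, and of 1 member for the other 34. Of the 4, 3 lie downstream of every single-member probe of their cluster, where the constant exons are. One of these carries the name Pcdhac2, lies at 37347235 to 37347294 and is listed for Pcdhac2, Pcdha9, Pcdha4 and Pcdhac1. The other 2 carry the name Pcdhga9. The probe at 37999725 to 37999784 is listed for Pcdhga9, Pcdhga5, Pcdhga6 and the locus Gm37013, and the one at 38001378 to 38001437 for Pcdhga9, Pcdhga5, Pcdhga6 and Pcdhga1. RefSeq gives Gm37013 the older name Pcdha4-g, and the same transcript is listed for the Pcdha4 probe. The 2 probes named Pcdhga9 are 1653 bases apart both in the transcript and in the genome, so no intron lies between them. The fourth probe, named Pcdha8, lies among the variable exons at 37154205 to 37154264 and is listed for Pcdha8, Pcdha7, Pcdha4 and Gm37013. The annotation gives at most 4 accessions for a probe, so a probe listed for 1 member may still read others. In what follows, the probes of a gene with more than 1 are told apart by the base of the transcript at which they start.

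Signals at the 75th percentile, to which every array was scaled, were 883 to 910 in knock-in, 823 in wild-type replicate 3 and 578 to 580 in wild-type replicates 1 and 2. The last 2 were hybridised on another slide than the other 4 arrays. All 8 synaptic and neuronal markers, among them Snap25, Syn1 and Camk2a, were well above background on all 6 arrays. So were all 7 astrocyte, 7 microglia and 6 oligodendrocyte markers, so glial transcripts were measured as well as neuronal ones. In such bulk samples, fewer cells of a type and less RNA per cell cannot be told apart.

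Of the 58 RefSeq members 23 had a probe listed for no other member that was detected on every array: 5 alpha, 16 beta and 2 gamma genes. The Pcdha4 probe, counted here, is also listed for the locus Gm37013. Another 23 members had no probe under their own name. Of the 38 probes, 27 were well above background on all 6 arrays, 6 on some and 5 on 0. Per array, 71.1% to 81.6% of the member probes were detected, against 51.8% to 54.6% of all probes on the array. Detection, like signal, depends on each probe's own sequence, so these shares do not compare amounts of transcript.

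In the alpha cluster the same 7 of 9 probes were detected on every array, or 77.8%. They were those of Pcdha4, Pcdha9, Pcdha11, Pcdha12, the Pcdha8 probe listed for several members, and both probes of Pcdhac2. The probes on 0 arrays were those of Pcdhac1, a C-type member, and the Pcdha8 probe listed for Pcdha8 alone. Of the 2 Pcdha8 probes, 209 bases apart in the same exon, the one listed for 3 alpha members was thus detected on 6 arrays and the one listed for 1 member on 0. Without the 2 probes listed for several members, 71.4% of the alpha probes were detected.

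In the beta cluster 16 of 22 probes were detected on all 6 arrays, 5 on some and 1, that of Pcdhb1, on 0. The mean share was 84.8% ± 5.25 on the knock-in arrays and 78.8% ± 5.25 on the wild-type arrays (SD, n = 3 each), and single arrays ranged from 72.7% in wild-type replicate 2 to 90.9% in knock-in replicate 3. The groups overlapped, since the other 4 arrays all had 81.8%. The 5 probes detected on some arrays were those of Pcdhb2, Pcdhb5, Pcdhb8, Pcdhb11 and Pcdhb19. Pcdhb11 was well above background in knock-in replicates 1 and 3 and on 0 wild-type arrays. Its signals, log2 relative to the 75th percentile, were -4.35, -4.96 and -4.58 on the knock-in arrays (replicates 1 to 3) and -4.75, -5.56 and -5.31 on those of wild type. Knock-in replicate 2 lay below wild-type replicate 1, so the groups overlapped. Pcdhb2 was detected in knock-in replicate 3 alone. Its knock-in and wild-type means were both -5.33. Pcdhb19 was detected in wild-type replicate 3 alone, and its wild-type arrays, at -4.97, -5.59 and -4.72, lay on both sides of the knock-in arrays, at -5.27, -5.34 and -5.27.

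In the gamma cluster 4 of 7 probes were detected on all 6 arrays, those of Pcdhgb1, Pcdhgc5 and both constant-exon probes named Pcdhga9. Pcdhga1 was detected in wild-type replicate 1 alone, at -4.72, while the other 5 arrays lay between -5.53 and -5.33. Pcdhga5 and Pcdhga10 were detected on 0 arrays. The mean share was 57.1% on the knock-in arrays and 61.9% ± 8.25 on the wild-type arrays (SD, n = 3). Without the 2 constant-exon probes the mean share over all arrays was 43.3%. Of the 22 gamma members 16 have no probe under their own name, among them the C-type members Pcdhgc3 and Pcdhgc4.

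Detection can be set beside the place of the probe in its transcript. The kind of labelling kit named in the labels starts from the poly(A) tail, and variable exons lie upstream of the constant ones. Beta probes started between bases 2215 and 4950 of their transcripts. The alpha probes detected on 0 arrays started at bases 160 and 1875, and those detected on all 6 at bases 1989 to 5345. Among the gamma probes the order was mixed, since the Pcdhgc5 probe starts at base 45 and was detected on all 6 arrays, while the probes at bases 1014 and 2328 were detected on 0. The part of probe position in these shares was not tested.

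**Figure D1:**
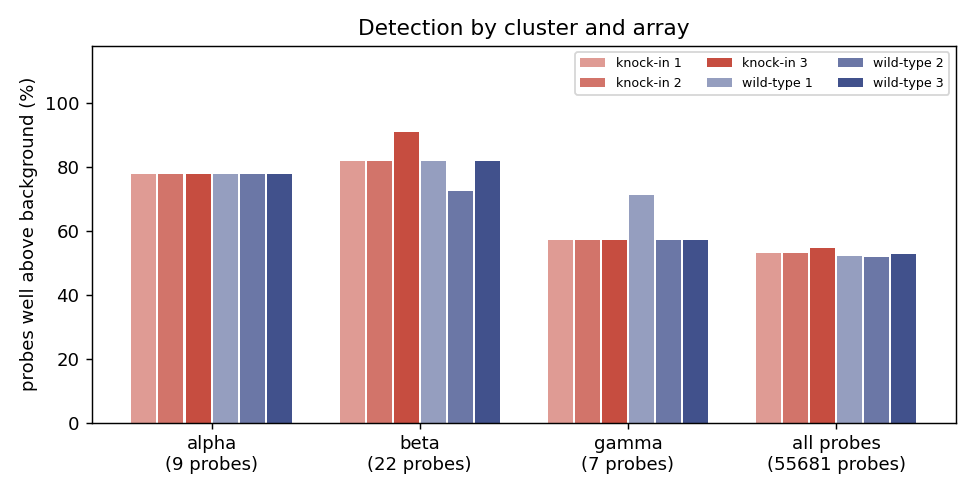
Percent of probes well above background (vertical axis) on each array, for the alpha, beta and gamma clusters and for all probes; a bar is 1 array, red for knock-in and blue for wild type. All 6 alpha bars stand at 77.8%, beta bars range from 72.7% to 90.9%, gamma bars from 57.1% to 71.4%, and the bars for all probes from 51.8% to 54.6%.

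**Figure D2:**
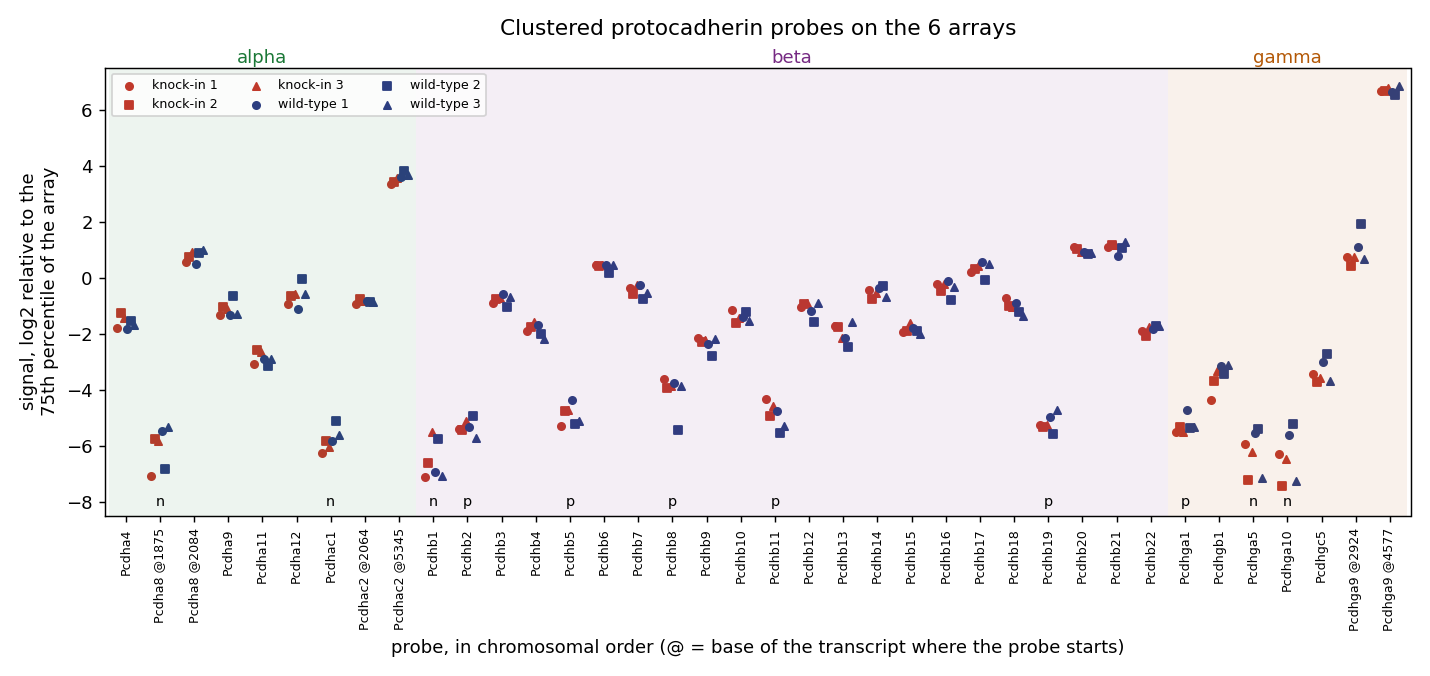
Signal of each of the 38 probes on the 6 arrays, in log2 relative to the 75th percentile of the array, in chromosomal order; red points are knock-in and blue points wild type, with a marker shape for each replicate, n marks a probe well above background on 0 arrays and p one on 1 to 5 arrays. Knock-in and wild-type points overlap in nearly all probes, and the distance between probes does not compare their transcripts.

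For the comparison of knock-in with wild type, probes had to be well above background on 3 or more arrays, which 29 of the 38 were: 7 alpha, 18 beta and 4 gamma probes. Adjustment ran over the 29318 probes of the array that met this. By limma, 0 of the 29 members passed an adjusted p of 0.05, where 2 of all probes did (0.00682%). Adjusted p-values of the members lay between 0.494 and 0.981. An unadjusted p under 0.05 was reached by 0 members, against 10.4% of all probes. The groups did not overlap, every knock-in array being above or every one below all wild-type arrays, in 2 of the 29, against 19.9% of all probes. For 25 of the 29 the 95% interval of the difference stayed within 2-fold in either direction, as it did for 83.4% of all probes tested. By cluster this held for 7 of 7 alpha, 17 of 18 beta and only 1 of 4 gamma probes, so larger gamma differences were not bounded.

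Members went both ways. A difference is the knock-in mean minus the wild-type mean in log2 units, and the median over all probes tested was -0.05. The alpha median was -0.052, with 3 of 7 probes higher and 4 lower. The beta median was 0.11, with 12 of 18 higher and 6 lower. The gamma median was -0.50, with 1 of 4 higher and 3 lower. Over all probes tested, 12235 were higher and 17083 lower. Clusters were not tested against each other, since members of a cluster share samples and, in part, sequence.

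**Figure D3:**
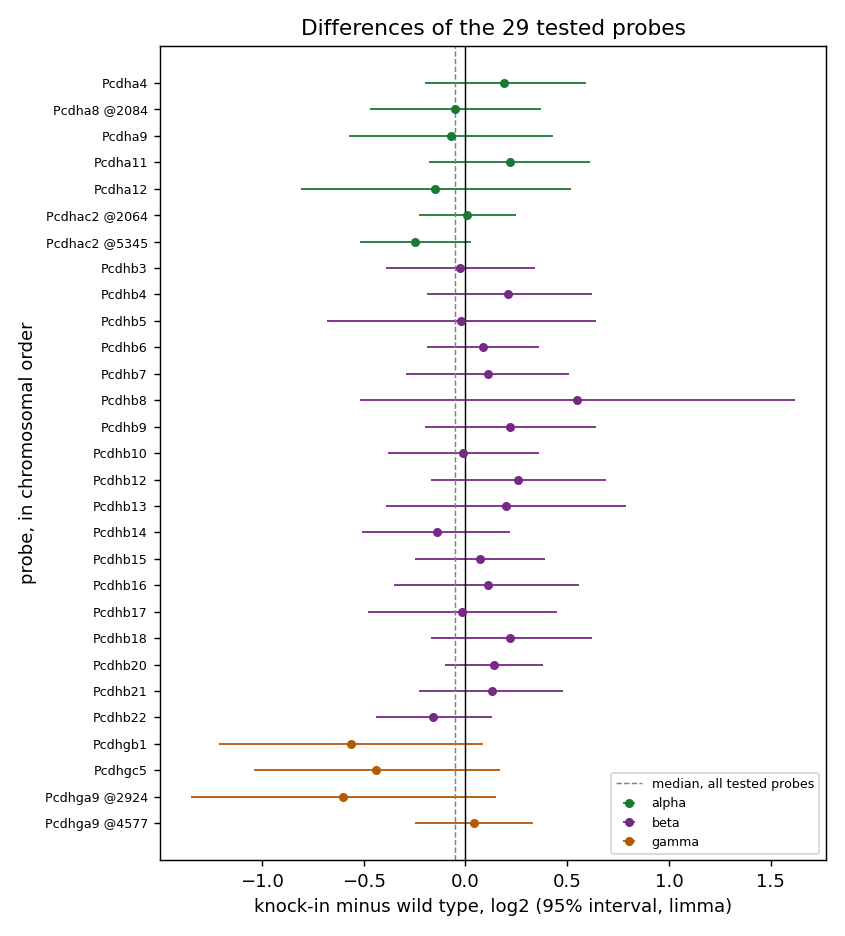
Difference between knock-in and wild type of each of the 29 tested probes (points, log2) with its 95% interval from limma (bars), in chromosomal order and coloured by cluster; the dashed line is the median of all probes tested. Every interval includes 0, and the widest is that of Pcdhb8, from -0.52 to 1.62.

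The alpha variable exons encode the isoforms that give a neuron its individual surface. Pcdha4 read -1.79, -1.27 and -1.45 on the knock-in arrays of replicates 1 to 3 and, in the same order, -1.84, -1.55 and -1.69 on the wild-type arrays. Knock-in replicate 1 lay below 2 of the wild-type arrays, and the difference was 0.19 (SE 0.16, adjusted p = 0.638 by limma). Pcdha11 read -3.07, -2.60 and -2.64 in the knock-in and -2.91, -3.15 and -2.90 in the wild-type group. Again knock-in replicate 1 fell among the wild-type arrays, with a difference of 0.22 (SE 0.16, adjusted p = 0.600).

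Pcdha12 read -0.96, -0.64 and -0.59 in the knock-in and -1.12, -0.042 and -0.60 in the wild-type group. The highest and the lowest array were both wild type, and the difference was -0.15 (SE 0.28). Pcdha9 read -1.32, -1.05 and -1.12 in the knock-in and -1.32, -0.65 and -1.31 in the wild-type group, with wild-type replicate 2 above all others. Its difference was -0.07 (SE 0.21). Without wild-type replicate 2 both turned sign, to 0.12 for Pcdha12 and 0.15 for Pcdha9. The Pcdha8 probe listed for several members read between 0.49 and 0.99 on the 6 arrays and differed by -0.052 (SE 0.17).

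Pcdhac2 is the C-type alpha member that serotonergic neurons need to space out their axons. The probe in its own exon, at base 2064, read -0.94, -0.77 and -0.85 in the knock-in and -0.83, -0.87 and -0.87 in the wild-type group. The groups overlapped, and the difference was 0.0064 (SE 0.10), with a 95% interval from -0.23 to 0.25 and, without wild-type replicate 2, a value of -0.0011. Of 4 serotonergic markers only Slc18a2, a vesicular transporter of monoamines in general, was well above background on all 6 arrays, and the serotonin transporter gene Slc6a4 was so on 0.

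The alpha constant-exon probe, listed for 4 alpha members, was lower on every knock-in array than on any wild-type array. This probe, at base 5345 of Pcdhac2, read 3.35, 3.42 and 3.54 in the knock-in and 3.59, 3.82 and 3.65 in the wild-type group. The highest knock-in array lay just below the lowest wild-type array. The difference was -0.25 (SE 0.11), or 0.841 of wild type, with an unadjusted p of 0.0685 and adjusted p = 0.494 by limma, so it did not pass. Relative to the exon of Pcdhac2 itself, measured within each array, the constant-exon signal was lower in knock-in by 0.26 (SD 0.10 and 0.14, n = 3 each), without overlap between the groups. The exact two-sided permutation p was 0.1, the smallest that 3 against 3 arrays allow. The probe in the Pcdhac2 exon differed by only 0.0064, so this comparison largely repeats the constant-exon difference and adds no separate support. Of all probes tested, 12% lay wholly lower in knock-in. The tested alpha probes listed for 1 member, that of the Pcdhac2 exon included, had a median difference of 0.0064. They did not show the lower level of the constant-exon probe as a set.

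Of the beta genes, each a single exon with its own promoter and no constant part, 18 were tested, and for 17 the 95% interval lay within 2-fold. Those of smallest p were Pcdhb12, Pcdhb18, Pcdhb20, Pcdhb22 and Pcdhb9. Pcdhb20 was the 1 beta probe whose groups did not overlap: it read 1.10, 1.01 and 0.93 in the knock-in and 0.90, 0.83 and 0.89 in the wild-type group. The gap between the groups was smaller than the spread within knock-in, and the difference was 0.14 (SE 0.10, adjusted p = 0.592). Of all probes tested, 7.93% lay wholly higher in knock-in.

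Pcdhb12 read -1.04, -0.96 and -0.91 in the knock-in and -1.19, -1.57 and -0.92 in the wild-type group. Wild-type replicate 3 lay with the knock-in arrays, and the difference was 0.26 (SE 0.18, adjusted p = 0.573). Pcdhb18 read -0.74, -1.03 and -1.06 in the knock-in and -0.90, -1.23 and -1.38 in the wild-type group, a difference of 0.22 (SE 0.16). Pcdhb9 read -2.16, -2.31 and -2.24 in the knock-in and -2.37, -2.81 and -2.20 in the wild-type group. Wild-type replicate 3 was the second highest of the 6 arrays, and the difference was 0.22 (SE 0.17). Pcdhb22, the last gene of the cluster, went the other way, with -1.92, -2.09 and -1.77 in knock-in, -1.85, -1.73 and -1.74 in wild type and a difference of -0.16 (SE 0.12).

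Of the other 13 tested beta probes 8 were higher and 5 lower, by amounts between -0.14 for Pcdhb14 and 0.55 for Pcdhb8. Pcdhb8 rested on a single array. It read -3.61, -3.94 and -3.87 in knock-in, -3.77 and -3.87 in wild-type replicates 1 and 3, and -5.44 in wild-type replicate 2, where it was not well above background. Pcdhb6 read 0.45, 0.43 and 0.44 in knock-in, against 0.45, 0.18 and 0.44 in wild type, with wild-type replicate 2 again lowest. Pcdhb3, whose value is a mean over 10 spots of each array, read -0.91, -0.78 and -0.73 in the knock-in and -0.59, -1.06 and -0.69 in the wild-type group. Its difference was -0.025 (SE 0.15), with wild-type arrays at both ends.

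Wild-type replicate 2 was the lowest of the 6 arrays for 10 of the 18 beta probes, or 55.6%. Over all probes tested it was the lowest for 22.4% and the highest for 36.9%. The median beta deviation from the mean of the 6 arrays was -0.24 in wild-type replicate 2, against 0.031 to 0.11 on the other 5. Without this array the beta median fell from 0.11 to 0.0038, the Pcdhb9 difference to 0.046 and the Pcdhb12 difference to 0.087. With slide as a block the beta median was 0.04, and with normexp background correction 0.058. Marker lists moved on the same array: relative to the mean of the 6 arrays, its oligodendrocyte markers (6 of 6 detected on all arrays) read -0.47, its Purkinje cell markers (5 of 6) -0.51 and its astrocyte markers (7 of 7) -0.16, while its synaptic and neuronal markers (8 of 8) read 0.11. Its striatal markers (8 of 10) read -1.53, its choroid plexus markers (3 of 8) -0.62, its serotonergic markers (1 of 4) -0.59 and its microglia markers (7 of 7) -0.13. Its endothelial markers (5 of 5) went the other way, at 0.31. The Purkinje cell list held Pcp2, Calb1, Gad2, Itpr1, Car8 and Ppp1r17, and Ppp1r17 was not well above background on any array. The numbers in brackets count markers detected on all arrays, but each list value is a mean over every marker with a probe. The choroid plexus and serotonergic values thus rest in large part on markers not detected on all arrays. The mean oligodendrocyte level was 3.97 to 4.39 on the knock-in arrays and 3.53 to 4.09 on the wild-type arrays. The part of these cells in the beta signal was not tested.

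The alpha probes followed other arrays. Knock-in replicate 1 and wild-type replicate 1 had a median deviation of -0.19 each. They were the lowest of the 6 for 3 of 7 alpha probes each, against 20.4% and 16.9% of all probes tested. Knock-in replicate 2 and wild-type replicate 2 were the highest for 3 each, against 14% and 36.9% of all probes tested. Both arrays of replicate 1 also had the highest level of striatal markers. Of these, 8 of 10 were detected on all arrays, Drd2 and Six3 not on all. These markers lay at 2.03 and 1.43 above the mean of the 6 arrays in knock-in and wild-type replicate 1, and between -1.53 and 0.55 on the others. Of the choroid plexus markers 3 of 8 were detected on all arrays, and Kcne2 was well above background on 0. Their mean over all 8 lay between 0.55 and 0.83 on both arrays of replicate 1 and knock-in replicate 2. On the others it lay between -0.78 and -0.62. The mean level of the striatal markers was 0.11 to 3.13 on the knock-in and -0.44 to 2.53 on the wild-type arrays. That of the choroid plexus markers was -5.01 to -3.69 and -5.14 to -3.53. The part of brain region in the alpha signal was not tested.

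**Figure D4:**
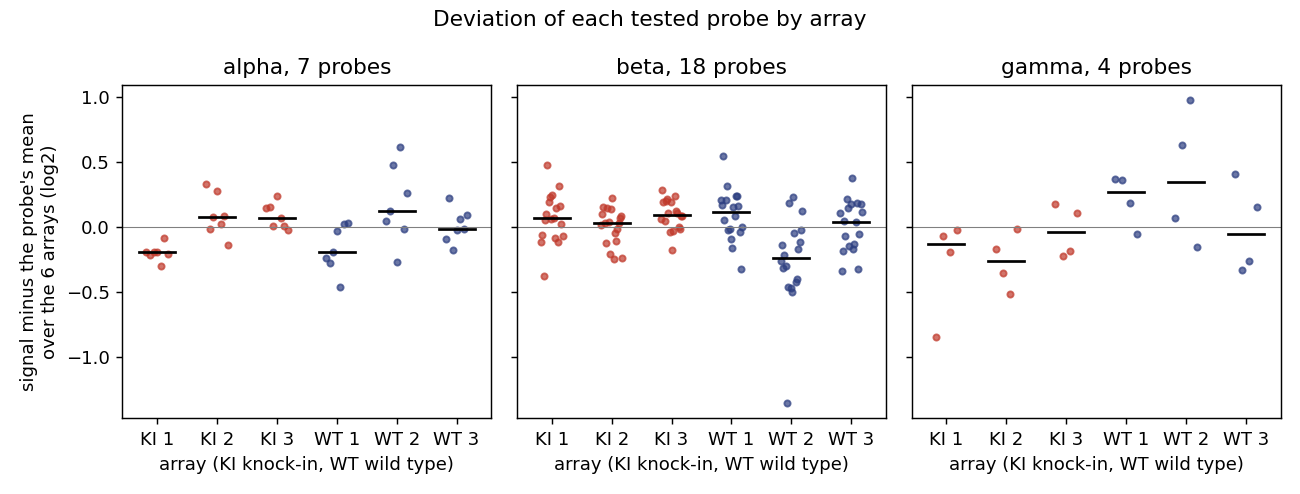
Signal of each tested probe minus its own mean over the 6 arrays (points, log2) by array, for the alpha, beta and gamma clusters; black lines are medians, red is knock-in and blue wild type. The beta median of wild-type replicate 2 lies at -0.24, the alpha medians of knock-in and wild-type replicate 1 at -0.19, and the gamma medians of wild-type replicates 1 and 2 at 0.27 and 0.35.

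Gamma probes had the lowest median of the 3 clusters, and it lay closer to 0 within 1 slide, though not for each probe. Pcdhgb1, a B-type variable exon, read -4.38, -3.70 and -3.35 in the knock-in and -3.16, -3.46 and -3.12 in the wild-type group. Knock-in replicate 3 lay above wild-type replicate 2, and the difference was -0.56 (SE 0.27, adjusted p = 0.503 by limma), with a 95% interval from -1.21 to 0.087. Without knock-in replicate 1 it was -0.28, and within the slide of the knock-in arrays -0.69, farther from 0. The C-type member Pcdhgc5 read -3.44, -3.72 and -3.59 in the knock-in and -3.01, -2.74 and -3.70 in the wild-type group. Wild-type replicates 1 and 2 stood above the rest, and wild-type replicate 3, on the slide of the knock-in arrays, lay among them. The difference was -0.44 (SE 0.25, adjusted p = 0.533) over all arrays and 0.11 within that slide.

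The 2 constant-exon probes of the gamma cluster, in 1 exon, behaved differently between arrays. The probe at base 4577, nearer the transcript's end, read 6.65, 6.66 and 6.78 in the knock-in and 6.62, 6.52 and 6.83 in the wild-type group. The groups overlapped and all 6 arrays stayed close, with a difference of 0.04 (SE 0.12, adjusted p = 0.898). The probe at base 2924 read 0.73, 0.41 and 0.74 in the knock-in and 1.11, 1.90 and 0.66 in the wild-type group. Wild-type replicate 2 stood apart, wild-type replicate 3 lay within the knock-in range, and the difference was -0.60 (SE 0.31, adjusted p = 0.519). It was -0.26 without wild-type replicate 2 and -0.035 with slide as a block. Within each array, the signal near the end relative to the upstream one was 0.64 higher in knock-in on average, with an SD of 0.17 in knock-in and 0.77 in wild type (exact two-sided permutation p = 0.3, n = 3 each). In wild-type replicate 2 that relative signal was -1.13 from the mean of the 6 arrays, and on the other 5 between -0.25 and 0.50.

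With slide as a block, so that wild-type replicate 3 alone stands against the knock-in arrays, the gamma median was -0.084 in place of -0.50. Without wild-type replicate 2 it was -0.25, and in the authors' value table -0.31.

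Genes that read, silence or process the clusters were given by lists, again by counts. CTCF and cohesin loop a distant enhancer to the promoter of the exon in use. Of the 14 tested probes of that list 8 were higher and 6 lower, with a median of 0.053, and 0 passed in either direction. The cohesin subunit gene Smc1a read 3.97, 4.05 and 3.95 in the knock-in and 4.17, 4.31 and 4.05 in the wild-type group, with the highest knock-in and lowest wild-type arrays almost equal (difference -0.19, SE 0.11, adjusted p = 0.541 by limma). Wapal, which releases cohesin from DNA, differed by 0.19 (SE 0.13).

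The promoters of exons not in use are methylated and silenced. Of 14 tested probes of silencing genes 6 were higher and 8 lower, with a median of -0.078 and 0 passing in either direction. Dnmt3b, the methyltransferase that marks these promoters in early development, read -4.79, -4.34 and -4.30 in the knock-in and -3.95, -4.01 and -4.11 in the wild-type group, wholly lower (difference -0.45, SE 0.16, adjusted p = 0.458). It had the smallest p of its list, and of all probes tested 12% lay wholly lower. Its signals were dim, not far above the -4.96 at which Pcdhb11 was not well above background in knock-in replicate 2.

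Protocadherins are cut by ADAM proteases and gamma-secretase, and the cytoplasmic parts of some members act on the kinases FAK and PYK2 and on the WAVE complex. Of 12 tested cleavage probes 5 were higher and 7 lower, with 0 passing; the 2 tested probes of the gamma-secretase subunit gene Aph1b opposed each other, at 0.34 (SE 0.14) and -1.07 (SE 0.44). Of 20 signalling probes 8 were higher and 12 lower, with a median of -0.10 and 0 passing. Ptk2, which encodes FAK, read -0.75, -0.83 and -0.41 in the knock-in and 0.21, 0.15 and -0.37 in the wild-type group, a difference of -0.66 (SE 0.20, adjusted p = 0.447). Wasf1, the WAVE component of neurons, read 4.62, 4.50 and 4.62 in the knock-in and 4.84, 5.02 and 4.81 in the wild-type group, a difference of -0.31 (SE 0.11, adjusted p = 0.458). Both lay wholly lower in knock-in, as 5 of the 20 probes did, against 12% of all probes. For Ptk2, wild-type replicate 3, on the slide of the knock-in arrays, lay just above knock-in replicate 3.

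Of 13 tested probes of other membrane partners 4 were higher and 9 lower, with 0 passing. The extracellular guidance protein gene Reln differed by 0.57 (SE 0.20, adjusted p = 0.459) and its receptor gene Vldlr by 0.50 (SE 0.24) on 1 probe, while the other Vldlr probe had the opposite sign. Non-clustered protocadherins, which lie elsewhere in the genome and have no constant exons in common, had 22 tested probes, 8 higher and 14 lower, with a median of -0.061 and 0 passing. Pcdh9 differed by 0.54 (SE 0.20, adjusted p = 0.460) on 1 of 3 probes, and 1 of the other 2 had the opposite sign. Pcdh7 differed by -0.56 (SE 0.26) on 1 of 3 probes, and both others had the opposite sign.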

How the data were processed

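Per the file headers, the scanner software was Agilent Feature Extraction 10.7.3.1, and each deposited intensity is background-subtracted and detrended within its array, on a linear scale, with no normalization between arrays. A value table of the authors, in log2 units, served as an alternative; how it was normalized was not given in the sources used here. Log2 processed intensities were scaled by each array's 75th percentile of non-control spots, spots of a probe were averaged without outlier spots, and the groups were fitted with limma 3.58.1 under R 4.3.3 (lmFit, eBayes, two-sided, Benjamini-Hochberg over 29318 probes). The script was tested on simulated data. Flags of the scanner software gave detection. The number of arrays, 3 a group, limits the precision.

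The members and lists were chosen with earlier results of these data known. Named were the C-type members, probes listed for several members, the 5 probes of smallest p in each cluster and the 2 of each list, of which 1 is not reported here; Pcdhb2, Pcdhb3, Pcdhb6, Pcdhb8, Pcdhb11, Pcdhb14, Pcdhb19 and Pcdhga1 were added after their values were seen. The within-array comparisons between probes of the same gene were added to the planned results. Alternatives were normexp (offset 50), quantile and median scaling, other filters, the brightest probe of a gene, a trended fit, slide and replicate blocks, and leaving out each array.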

Additional observations from a re-analysis of the deposited data

How the results depend on the processing

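With limma, 0 members passed the threshold in the main processing and in each of 18 alternative fits, where the lowest adjusted p was 0.198 and at most 3 members had an unadjusted p under 0.05, without wild-type replicate 3 (10.3%, against 15.6% of all probes). The number of members without overlap, 2 of 29 (6.9%, against 19.9% of all probes), was 4 with normexp (13.8% against 26.3%), 1 with quantile normalization (3.45% against 18.7%) and 13 with slide 1 alone, which leaves 1 wild-type array (44.8% against 62%). It went from 2 to 9 when 1 array was left out, 9 without wild-type replicate 3 (31% against 36.6%). The gamma median of -0.50 was -0.084 with slide as a block or slide 1 alone, -0.31 in the authors' value table, and from -0.60 to -0.25 when 1 array was left out. The alpha median of -0.052 went from -0.18 to 0.12 when 1 array was left out, highest without wild-type replicate 2. The cause of these shifts was not tested. With the flag for a positive and significant signal, 98.1% of alpha, 97.7% of beta and 95.2% of gamma probes were detected; with probes listed for 1 member, 71.4% of alpha and 43.3% of gamma; and when all 3 arrays of a group had to agree, 75% of beta.

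Of 16 named probes 6 kept their sign in all 18 alternatives, and Pcdhga9 at base 2924 in the 17 that held it, since the brightest probe of its gene is the other one. With slide as a block or slide 1 alone the sign turned for Pcdha9 (0.15), Pcdhb9 (-0.039), Pcdhb12 (-0.048), Pcdhgc5 (0.11) and Pcdhga9 at base 4577 (-0.13); with normexp for Pcdha11 (-0.013) and Pcdhac2 at base 2064 (-0.032); and in the authors' value table for Pcdha9 (0.018). Leaving out one array gave ranges of -0.20 to 0.048 for Pcdha8 at base 2084, of -0.18 to 0.15 for Pcdha9, of -0.41 to 0.12 for Pcdha12, of -0.035 to 0.048 for Pcdhac2 at base 2064 and of -0.027 to 0.13 for Pcdhga9 at base 4577. Of the other 13 tested probes, 11 turned sign in at least 1 alternative.

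Same-numbered arrays had correlations of 0.364, -0.039 and 0.217 in their deviations from the group means. For differently numbered arrays these ran from -0.351 to 0.127. The values do not settle whether the replicate numbers pair the samples, and the main fit did not pair them. With a replicate block 0 members passed, the medians were as in the main processing by construction, and 0 of all probes passed against 2.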
